A study of Rattus norvegicus with 6 samples.

Results

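The claudins described here are 10 genes (Cldn1, Cldn2, Cldn3, Cldn4, Cldn7, Cldn8, Cldn10, Cldn14, Cldn16 and Cldn19), chosen by symbol from the 17051 genes of the deposited tables because each is known to mark the tight junctions of a nephron segment. All 10 were listed in every rat. Cldn14 stayed under 30 estimated reads in every rat and was set aside, and the other 9 were among the 11553 genes that reached this limit somewhere and were tested. Kidney RNA came from 6 male Sprague Dawley rats, each sequenced as a library of its own. The AL group (rats 61, 71 and 88) ate standard powdered chow freely (the labelled normal diet), and the HD group (rats 64, 67 and 69) ate such chow mixed for a week with amino acids in the proportions of hemoglobin, which the labels call a hyperammonemic diet. The ages of the rats are not given in the sources used here, and the portion of kidney is stated only for the RNA of the PCR assays, not for the sequenced RNA. Library totals ranged from 12499938 to 30466453 estimated reads.

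Claudins are membrane proteins of the tight junction, the belt that seals neighboring epithelial cells to each other. Some form pores that let cations, anions or water pass between cells, and others close this paracellular route. The set of claudins changes along the tubule, so that the proximal tubule is leaky to salt and water, the thick ascending limb passes calcium and magnesium between its cells, and the collecting duct is tight to sodium. Kidney tissue mixes these segments, and in such RNA fewer cells of a type and less RNA per cell cannot be told apart.

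Per transcript length, the claudins spanned about 3 orders of magnitude, from Cldn10 at 290.5 ± 39.8 TPM (SD over 6 rats) to Cldn14 at 0.290 ± 0.220. Cldn2, at 283 ± 45.2 TPM, stood beside Cldn10 at the top, with Cldn10 above Cldn2 in 3 of the 6 rats. A step down to Cldn3 (81.7 ± 36.2 TPM) separated this pair from the rest in all 6 rats. Cldn8 (69.0 ± 16.4), Cldn4 (57.5 ± 19.9), Cldn7 (45.9 ± 13.4), Cldn19 (41.4 ± 13.7) and Cldn16 (30.9 ± 4.77) followed in this order of TPM. Each gene from Cldn3 to Cldn19 exceeded the next in only 4 of 6 rats, so the order of neighbors did not exceed the spread between rats. Genes further apart could differ in every rat, since Cldn3, Cldn8, Cldn4 and Cldn7 were each above Cldn16 in all 6 rats. Cldn16 was above Cldn1 (4.25 ± 2.11 TPM), and Cldn1 above Cldn14, in every rat.

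Cldn2 and Cldn10 together held 60.8% ± 5.58 (AL) and 66.5% ± 4.29 (HD) of the summed TPM of the 10 claudins (SD, n = 3 each). The 4 claudins of the distal nephron and collecting duct (Cldn3, Cldn4, Cldn7 and Cldn8) held 30.6% ± 5.83 (AL) and 25.2% ± 2.88 (HD) (SD, n = 3 each). The ranges of these shares overlapped between the groups. The summed TPM was 914, 1068 and 944 in AL rats 61, 71 and 88 and 808, 765 and 926 in HD rats 64, 67 and 69, with rat 69 above rat 61.

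**Figure D1:**
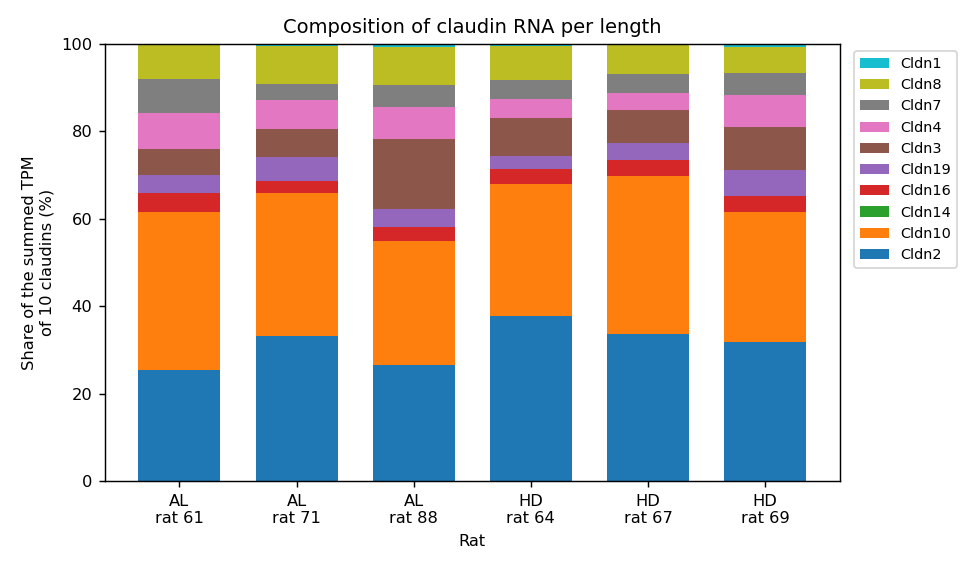
Share (%) of each claudin in the summed TPM of the 10 claudins, stacked for each of the 3 AL and 3 HD rats. Cldn2 and Cldn10, at the bottom, take between 54.9% and 69.8% in every rat, and the highest share of the distal claudins (36.9%) is that of AL rat 88.

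The diet question was then put to each claudin with edgeR's quasi-likelihood test on TMM-normalized counts over all 11553 tested genes. Of the 9 tested claudins, 8 had a log2 fold change below 0 in the HD group and only Cldn2 lay above 0. Among all tested genes, 48.7% lay below 0. The median log2 fold change of the 9 claudins was -0.25, against 0.0067 for all tested genes. With an adjusted *P* threshold of 0.05, edgeR called 0 of the 9 claudins and 0% of all tested genes. DESeq2 also called 0 of the 9, and 1.58% of all genes. Before adjustment, 2 claudins had *P* values below 0.05 in edgeR (the nominal limit), Cldn4 and Cldn8, both lower in the HD group, and the same 2 passed it in DESeq2. Of all tested genes, 10.6% passed the nominal limit in edgeR (5.94% lower and 4.66% higher in the HD group) and 11.5% in DESeq2. The count of 2 claudins became 1, Cldn8, when rat 61, 64, 67 or 88 was left out, and 3 when rat 69 or 71 was left out. With all rats and every gene with a read fitted, the count was also 3, with Cldn14 added.

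**Figure D2:**
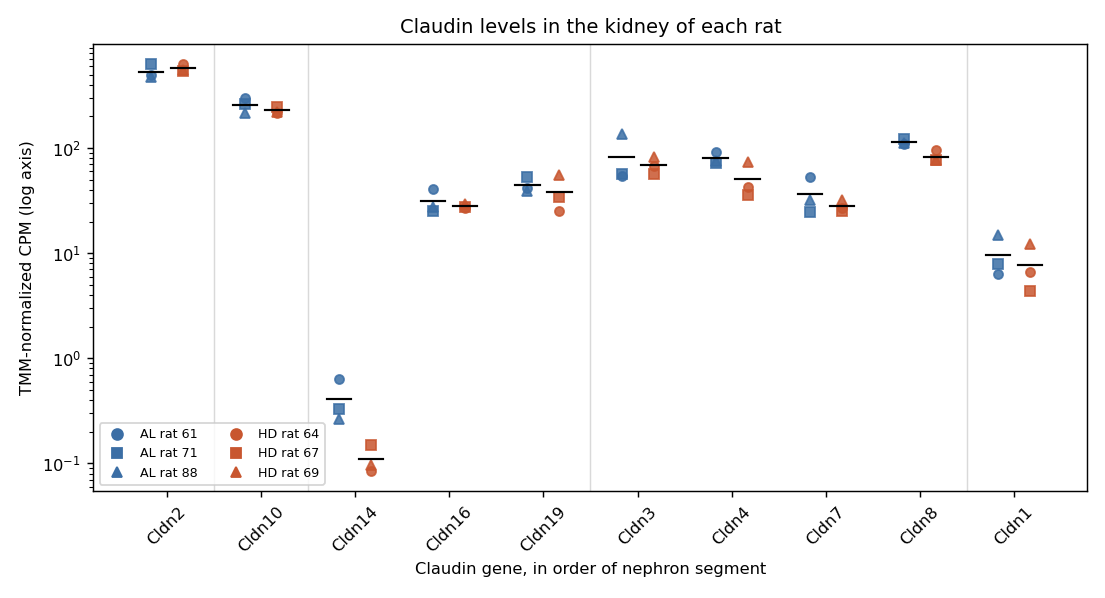
TMM-normalized CPM (log axis) of the 10 claudins in each rat, ordered from the proximal tubule through the thick ascending limb to the collecting duct, with Cldn1 of the glomerulus last. Points are rats, blue for AL and orange for HD, and black lines are group means. The groups are separate for Cldn8 and for Cldn14, the latter at 1 to 8 counts per rat.

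**Figure D3:**
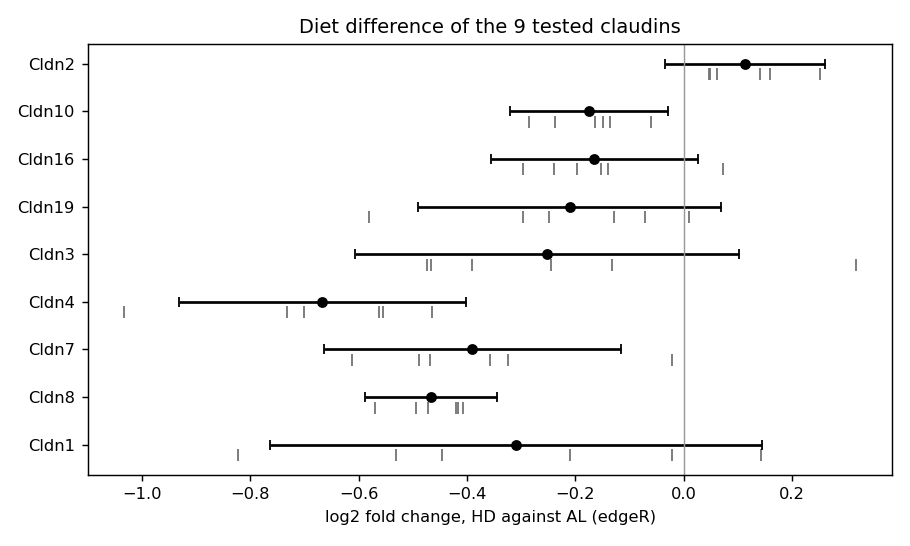
log2 fold change of the HD against the AL group from edgeR for the 9 tested claudins. Black points carry 1 standard error, and grey ticks are the 6 fits that each left out 1 rat. All ticks of Cldn4, Cldn8, Cldn10 and Cldn7 lie below 0 and all those of Cldn2 above 0. Those of Cldn16, Cldn19, Cldn3 and Cldn1 fall on both sides.

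Cldn8, which lets the junctions of the distal nephron and collecting duct hold back cations, was the claudin with the smallest *P* value. It has 1 exon of 2250 bases on the minus strand of rn5, at chr11:32145321-32147570. AL rats 61, 71 and 88 had 110.1, 122 and 112 normalized CPM, and HD rats 64, 67 and 69 had 94.98, 77.4 and 77.1. Every HD rat lay below every AL rat, which was true of 1 of the 9 tested claudins and of 7.01% of all tested genes. In none of the 9 did every HD rat lie above every AL rat, a pattern that 7.25% of all tested genes had. The group levels were 115 ± 6.23 and 83.2 ± 10.2 CPM (SD, n = 3 each), an HD level of 0.724 times the AL level. The log2 fold change was -0.47 ± 0.12 (SE), and the adjusted *P* value was 0.398 in edgeR and 0.0641 in DESeq2. The unadjusted edgeR *P* value of 0.00582 stayed between 0.00306 and 0.0263 when each rat was left out in turn. The exact permutation test gave *P* = 0.1 (two-sided), the smallest value that 3 rats against 3 allow. Behind these levels stood 1119 to 2412 estimated reads per rat.

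Cldn4, a partner of Cldn8 in the chloride route of the collecting duct, showed a larger difference with a wider spread. It has 1 exon of 1798 bases on the plus strand, at chr12:26761480-26763277 of rn5. Its levels were 92.4, 72.9 and 75.8 CPM in AL rats 61, 71 and 88, and 42.9, 35.4 and 73.2 CPM in HD rats 64, 67 and 69. HD rats 64 and 67 were far below the AL group, whereas rat 69 reached the lower edge of the AL range. The log2 fold change was -0.67 ± 0.26 (SE), and the adjusted *P* value was 0.445 in edgeR and 0.245 in DESeq2. The HD level was 0.63 times the AL level. The unadjusted edgeR *P* value was 0.0377. It was 0.00055 without rat 69, 0.0495 without rat 71, and between 0.0607 and 0.109 without any other rat. The exact permutation test gave *P* = 0.2 (two-sided). On the deposited TPM scale rat 69 (66.3 TPM) fell below the lowest AL rat (68.8 TPM), so the separation of Cldn4 depended on the scaling.

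Cldn7, which is found along the collecting duct on the lateral membrane as well as at the junction, was at 53.4, 24.6 and 32.3 CPM in AL rats 61, 71 and 88. HD rats 64, 67 and 69 had 26.7, 25.4 and 31.8 CPM. The gene has 5 exons at chr10:56321561-56323747 of rn5 (plus strand). Rat 61 stood apart, and the other 5 rats lay between 24.6 and 32.3 CPM. The log2 fold change of -0.39 ± 0.27 (SE; edgeR-adjusted *P* = 0.676) shrank to -0.02 without this rat.

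Cldn3, a sealing claudin of the distal segments, varied most inside the AL group, with 54.8, 56.5 and 135 CPM in rats 61, 71 and 88. The HD rats 64, 67 and 69 lay between these values, at 68.2, 57.0 and 81.6 CPM. Its 1 exon lies at chr12:23849259-23850731 of rn5 (minus strand). Its log2 fold change was -0.25 ± 0.35 (SE; edgeR-adjusted *P* = 0.864), and it turned to 0.32 without rat 88. Rat 88 also had the highest Cldn1 level of the 6 rats.

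The ratios among the distal claudins, taken on counts and therefore not corrected for length, did not separate the groups. The Cldn8 to Cldn4 ratio was 1.19, 1.67 and 1.48 in AL rats 61, 71 and 88 and 2.22, 2.19 and 1.05 in HD rats 64, 67 and 69 (exact permutation test on the log2 ratio, two-sided, *P* = 0.6). Rats 64 and 67 had the highest values and rat 69 the lowest of all. The Cldn3 to Cldn4 log2 ratio differed by 0.59 between the groups (exact permutation test, two-sided, *P* = 0.4) and the Cldn7 to Cldn8 log2 ratio by 0.15 (*P* = 0.9 in the same exact test).

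Since 2 of the 4 distal claudins passed the nominal limit, the DNA just upstream of their starts is shown where RefSeq gives it, which is the case for Cldn8, Cldn7 and Cldn3. Each sequence has the 250 bases before the annotated start, 5′ to 3′ on the gene's strand, in build GRCr8, at chr11:41364331-41364580 (minus strand) for Cldn8, chr10:55188420-55188669 (plus strand) for Cldn7 and chr12:27346548-27346797 (minus strand) for Cldn3. Capitals mark the GC box, which in both genes lies on the opposite strand and so reads CCGCCC.
Cldn8: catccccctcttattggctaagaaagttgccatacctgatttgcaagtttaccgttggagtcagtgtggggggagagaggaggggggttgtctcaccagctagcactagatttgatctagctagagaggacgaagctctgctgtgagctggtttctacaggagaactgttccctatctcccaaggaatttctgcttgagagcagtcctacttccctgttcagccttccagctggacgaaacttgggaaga
Cldn7: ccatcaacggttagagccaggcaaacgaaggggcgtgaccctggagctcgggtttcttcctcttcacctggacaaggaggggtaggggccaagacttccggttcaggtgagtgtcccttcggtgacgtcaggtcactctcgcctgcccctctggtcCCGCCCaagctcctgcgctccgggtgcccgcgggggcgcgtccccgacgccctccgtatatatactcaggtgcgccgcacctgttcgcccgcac
Cldn3: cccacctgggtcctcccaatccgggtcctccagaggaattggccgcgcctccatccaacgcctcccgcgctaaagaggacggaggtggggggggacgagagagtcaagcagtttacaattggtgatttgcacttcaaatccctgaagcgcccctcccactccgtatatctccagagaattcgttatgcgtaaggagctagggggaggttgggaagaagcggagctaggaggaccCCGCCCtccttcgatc
Both strands were searched for the GC box GGGCGG, the TATA box TATAAA and AACCNGTT, the element that grainyhead-like factors bind. The Cldn7 window held 1 GC box and the Cldn3 window 1, and the Cldn8 window held no match to any of the 3 motifs. Among 33469 RefSeq windows of the same length, 30.5% held a GC box, 12.9% a TATA box and 1.76% the grainyhead-like element. These matches describe letters only.

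In the proximal tubule, Cldn2 forms a pore for cations and water. The deposited tables place its 2 exons at chr3:53461937-53472528 of rn5, minus strand, whereas the later RefSeq assembly puts the gene on a different chromosome, so its rn5 position is uncertain. Cldn2 measured 491, 627 and 474 CPM in AL rats 61, 71 and 88 and 627, 537 and 558 CPM in HD rats 64, 67 and 69. The groups overlapped, and AL rat 71 was level with the highest HD rat. The log2 fold change was 0.11 ± 0.15 (SE; edgeR-adjusted *P* = 0.8497).

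Cldn10 is made in alternative forms with different first exons, an anion pore in the proximal tubule and a cation pore in the thick ascending limb. The tables list 1 transcript for it, with 6 exons at chr15:107450003-107539150 of rn5 (plus strand), so the forms were not separated. Its levels were 299, 263 and 215 CPM in AL rats 61, 71 and 88 and 216, 248 and 223 CPM in HD rats 64, 67 and 69. The HD rats lay inside the AL range, with a log2 fold change of -0.18 ± 0.15 (SE; edgeR-adjusted *P* = 0.739). The Cldn2 to Cldn10 log2 ratio was higher by 0.29 in the HD group (exact permutation test, two-sided, *P* = 0.3), with AL rat 71 above HD rat 67.

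The thick ascending limb claudins Cldn16 and Cldn19 act together in the paracellular route for magnesium and calcium, and inherited loss of either in people causes urinary wasting of these ions. Cldn16, at chr11:83013684-83033153 of rn5 (plus strand, 6 exons), had 41.0, 25.4 and 27.7 CPM in AL rats 61, 71 and 88 and 26.9, 27.5 and 29.4 CPM in HD rats 64, 67 and 69. Rat 61 alone was high, and the other 5 rats lay between 25.4 and 29.4 CPM. For Cldn16 the log2 fold change was -0.17 ± 0.19 (SE; edgeR-adjusted *P* = 0.830), and 0.07 without rat 61.

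Cldn19, at chr5:142113780-142118477 of rn5 (plus strand, 4 exons), had 42.0, 52.8 and 38.7 CPM in AL rats 61, 71 and 88 and 25.3, 33.9 and 55.6 CPM in HD rats 64, 67 and 69. The HD group held both the lowest and the highest rat. Its log2 fold change was -0.21 ± 0.28 (SE; edgeR-adjusted *P* = 0.855), with a range from -0.58 without rat 69 to 0.01 without rat 64. The count ratio of Cldn16 to Cldn19 ran from 0.481 to 0.975 in the AL group and from 0.528 to 1.06 in the HD group (exact permutation test on the log2 ratio, two-sided, *P* = 0.7).

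Cldn14, which opposes Cldn16 in the thick ascending limb and is known to rise when the calcium-sensing receptor is active, was close to the limit of detection. The gene has 2 exons at chr11:37721801-37731973 of rn5 (minus strand). It had 8, 6 and 4 estimated reads in AL rats 61, 71 and 88 and 1, 3 and 3 in HD rats 64, 67 and 69, and was therefore not tested with the other genes. The corresponding levels were 0.635, 0.333 and 0.265 CPM in the AL group and 0.0849, 0.150 and 0.0959 CPM in the HD group. Every HD rat lay below every AL rat (exact permutation test on log2 of CPM plus 0.5, two-sided, *P* = 0.1). Over the summed reads (18 for AL and 7 for HD), the HD level was 0.282 times the AL level, with an exact 95% interval from 0.0996 to 0.708 that covers counting error only. When every gene with a read was fitted, Cldn14 had a log2 fold change of -1.78, with an edgeR *P* of 0.029 before and 0.448 after adjustment. Its log2 ratio to Cldn16 was different by -0.42 in the HD group, again with no overlap (exact permutation test, two-sided, *P* = 0.1), and this size depends on the pseudocount at so few reads.

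Cldn1 is a sealing claudin found in the parietal cells of Bowman's capsule, and its transcript lies at chr11:82888892-82904046 of rn5 (minus strand, 4 exons). AL rats 61, 71 and 88 had 6.35, 7.82 and 14.8 CPM, and HD rats 64, 67 and 69 had 6.62, 4.35 and 12.3 CPM. The spread inside each group, with a coefficient of variation of 46.8% in the AL and 52.7% in the HD group, was wider than the difference between them. For Cldn1 the log2 fold change was -0.31 ± 0.45 (SE; edgeR-adjusted *P* = 0.870), and 0.14 without rat 88.

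Rat 69 had the highest level of the HD group in 6 of the 10 claudins (Cldn16, Cldn19, Cldn3, Cldn4, Cldn7 and Cldn1), and rat 61 the highest of the AL group in 5 (Cldn10, Cldn14, Cldn16, Cldn4 and Cldn7). Cldn8 had the lowest coefficient of variation of all members in the AL group, 5.43%.

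Markers of other kidney cell types also differed between the groups. In edgeR none of them passed the adjusted threshold, whereas DESeq2 called several, among them Nphs1, Wt1, Ptpro, Slc12a3, Trpv5, Slc22a6, Slc22a8, Slc26a4, Fxyd4 and Hsd11b2. The 8 podocyte markers summed to between 62.5 and 161 CPM in the AL group and between 214 and 450 CPM in the HD group, and 4 of them, among them Nphs1, Wt1 and Ptpro, were higher at the nominal limit. For the distal convoluted tubule the sums ran from 73.7 to 169 and from 222 to 772 CPM, with Slc12a3, Trpv5 and Calb1 higher, whereas Pvalb was near 0 in every rat. All 6 inner medulla and thin limb markers had lower mean levels in the HD group, 4 of them (Slc14a2, Akr1b1, Slc6a12 and Slc5a3) at the nominal limit. Of these only Slc6a12 had every HD rat below every AL rat, a pattern that 7.01% of all tested genes had. AL rats 61, 71 and 88 had 23.3, 99.0 and 390 CPM of Akr1b1 and 40.3, 3.60 and 9.13 CPM of Slc5a3. The sum of the list ran from 908 to 1491 CPM in the AL and from 483 to 891 CPM in the HD group. Its highest member was Cryab, which was not at the limit and whose groups overlapped. Macrophage markers summed to between 43.4 and 115 CPM in the AL group and between 23.2 and 48.3 CPM in the HD group, with Csf1r, C1qa, C1qb and Aif1 lower. At the same limit, the proximal Slc34a1, Slc22a6, Slc22a8, Slc4a4 and Hnf4a were higher. The T cell genes Cd3e and Cd3g and Vcam1, 1 of 4 tested injury markers, were lower. Of the 6 endothelial markers 5 lay below 0 and 1, Kdr (log2 fold change 0.37), above. Only Plvap passed the limit, with AL rat 61 (51.8 CPM) inside the HD range of 14.0 to 64.7 CPM. The endothelial sums overlapped, at 140 to 421 CPM in the AL and 90.7 to 312 CPM in the HD group. The part of these shifts in the claudin results was not tested.

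Beside Cldn4 and Cldn8, the 8 markers of principal cells, a cell type of the collecting duct, included 2 that were higher and 3 that were lower before adjustment. The aldosterone-related Scnn1b (log2 fold change 0.53) and Hsd11b2 (0.64) were higher at the nominal limit. The water channel gene Aqp3 (log2 fold change -0.41), the vasopressin receptor gene Avpr2 (-0.54) and the sodium pump regulator Fxyd4 (-0.43) were lower at the same limit. Aqp2, the vasopressin-regulated water channel, had a log2 fold change of -0.05. The summed level of the list was 1563 to 1708 CPM in the AL group and 1443 to 1818 CPM in the HD group. Among intercalated cell markers, Slc26a4 was higher and Slc4a1 lower at the nominal limit, with sums of 989 to 1162 CPM in the AL and 894 to 1020 CPM in the HD group.

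Claudins were also expressed relative to markers of their segment (for Cldn1, which parietal cells carry, relative to podocytes, another cell type of the glomerulus), as the log2 level of the claudin minus the mean log2 level of the list. The claudins of the distal nephron and collecting duct were set against the principal cell markers alone, not against distal convoluted tubule or intercalated cell markers. Cldn8 minus the principal cell markers was 0.17, 0.28 and 0.12 in AL rats 61, 71 and 88 and -0.20, -0.21 and -0.32 in HD rats 64, 67 and 69. The groups did not overlap, and the difference of -0.43 was close to the log2 fold change of Cldn8 itself (exact permutation test, two-sided, *P* = 0.1). For Cldn4 the difference was -0.69, with rat 69 inside the AL range (exact permutation test, two-sided, *P* = 0.3). Relative to the thick ascending limb markers, the differences of Cldn10 (0.02), Cldn16 (0.05) and Cldn19 (-0.09) were smaller than the SD of either group. This rested on the mean of the markers, since with their median the differences were -0.30, -0.27 and -0.41, which turned the direction of Cldn10 and Cldn16 (exact permutation test, two-sided, *P* = 0.4, 0.2 and 0.3). The 8 markers of this segment held 1 gene past the nominal limit, Slc12a1, which was lower, and Umod had a log2 fold change of -0.12.

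Cldn2 and Cldn10 were lower relative to the proximal markers in every HD rat than in every AL rat, by 0.63 and 0.92 on the log2 scale (exact permutation test, two-sided, *P* = 0.1 each). With the median of the markers the Cldn2 difference shrank to -0.38 and the groups overlapped (*P* = 0.2 in the same exact test), and that of Cldn10 was -0.67 (*P* = 0.1 in the exact test). The log2 fold changes of the claudins themselves were 0.11 and -0.18. Of the 10 tested proximal markers 9 lay above 0, up to 3.20 for the organic anion transporter gene Slc22a8 (mean 15.6 CPM in AL). Slc4a4 had 1.94 (mean 0.97 CPM in AL) and Slc34a1 0.70, whereas Slc7a13 (0.04), Lrp2 (0.19) and Cubn (-0.05) changed little. The summed level of the list overlapped, at 11425 to 13174 CPM in the AL and 11190 to 16290 CPM in the HD group. Cldn1 was lower relative to the podocyte markers in every HD rat than in every AL rat, by 1.83 (exact permutation test, two-sided, *P* = 0.1). All 8 podocyte markers lay above 0.

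**Figure D4:**
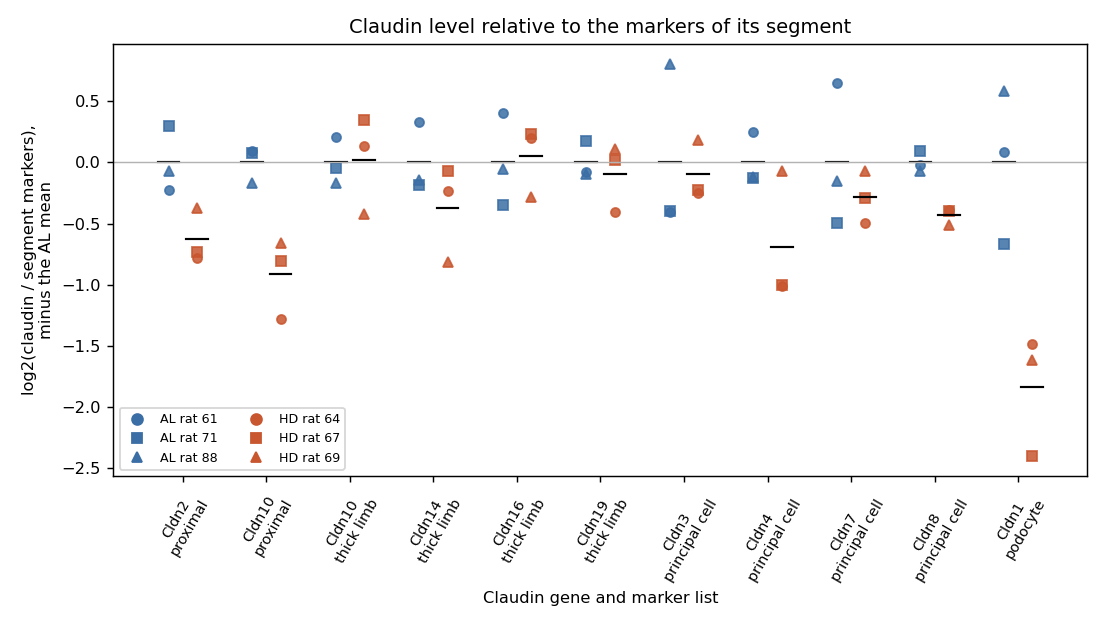
log2 level of each claudin minus the mean log2 level of its segment's markers (podocyte markers for Cldn1), shifted so that the AL mean is 0. Points are rats and black lines group means. HD rats lie below all AL rats for Cldn2 and Cldn10 against proximal markers, Cldn8 against principal cell markers and Cldn1 against podocyte markers. For Cldn2 this holds with the mean and not with the median of the markers. No share over all genes is available beside these relative levels.

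Of 14 further claudins looked up, 12 were listed and 8 tested, 4 with a log2 fold change above 0 and 4 below. At the nominal limit, which 10.6% of all tested genes passed, the HD group was lower for 3 of these 8 and higher for none. Cldn11, best known from myelin and the testis, went from 7.43 ± 4.92 CPM to 1.17 ± 0.284 (SD, n = 3 each), with rat 61 of the AL group (1.75 CPM) close to the HD rats and a log2 fold change of -2.63 ± 0.64 (SE; edgeR-adjusted *P* = 0.368). Cldn6, a claudin of immature epithelia, went from 23.6 ± 7.24 to 12.0 ± 3.03 CPM (SD, n = 3 each). For Cldn6 every HD rat was below every AL rat, as in 7.01% of all tested genes. Its log2 fold change was -0.98 ± 0.28 (SE, edgeR-adjusted *P* = 0.398). Cldn15, a cation pore of the intestine, had a log2 fold change of -1.40 ± 0.57 (SE; edgeR-adjusted *P* = 0.458) at 2.95 ± 1.11 and 1.07 ± 0.818 CPM (SD, n = 3 each). DESeq2 placed Cldn11 at an adjusted *P* value of 0.00512, the only one of the 3 below 0.05.

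The RNA of the proteins that claudins work with at the junction showed no common direction. Of 23 tested partners, among them occludin (Ocln), the scaffold genes Tjp1 and Tjp3 and the polarity genes, 14 had a log2 fold change above 0 and 9 below, with a median of 0.02. At the nominal limit Marveld3, the gene of a membrane protein of the tight junction, was higher (log2 fold change 0.66), and the adhesion molecule gene Jam2 (-1.30) and the scaffold gene Magi3 (-0.48) were lower. This count of 3 of 23 is near the 10.6% of all tested genes that passed the same limit, and it changed with the rats used, to 0 without rat 67, to 1 without rat 64 and to 5 without rat 69. Ocln and Tjp1 had log2 fold changes of -0.27 and -0.22.

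Among 17 tested genes linked to claudin control, the median log2 fold change was -0.0085, with 8 above 0 and 9 below. The parathyroid hormone receptor gene Pth1r (log2 fold change 0.47) and the vitamin D receptor gene Vdr (0.95) were higher at the nominal limit. So was the proximal transcription factor gene Hnf4a (0.33), which is also in the proximal list. DESeq2 placed Pth1r at an adjusted *P* value of 0.0393. Every HD rat lay above every AL rat for Pth1r and Hnf4a, as for 7.25% of all tested genes. For Vdr the groups overlapped, with HD rat 67 (12.5 CPM) below AL rat 71 (13.7 CPM). Grhl2, a grainyhead-like transcription factor that controls junction genes of the distal nephron, had 17.6, 21.7 and 21.8 CPM in AL rats 61, 71 and 88 and 11.7, 14.2 and 17.1 CPM in HD rats 64, 67 and 69. Every HD rat was below every AL rat for Grhl2, as in 7.01% of all tested genes. Its log2 fold change was -0.50 ± 0.18 (SE, edgeR-adjusted *P* = 0.414). The kinase gene Stk39 (-0.35) and the ephrin ligand gene Efna1 (-0.54) were also lower at the nominal limit, both with overlapping groups. The count of 6 of 17 regulators, against 10.6% of all tested genes, fell to 1 without rat 64 or rat 88 and to 3 without rat 67.

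**Figure D5:**
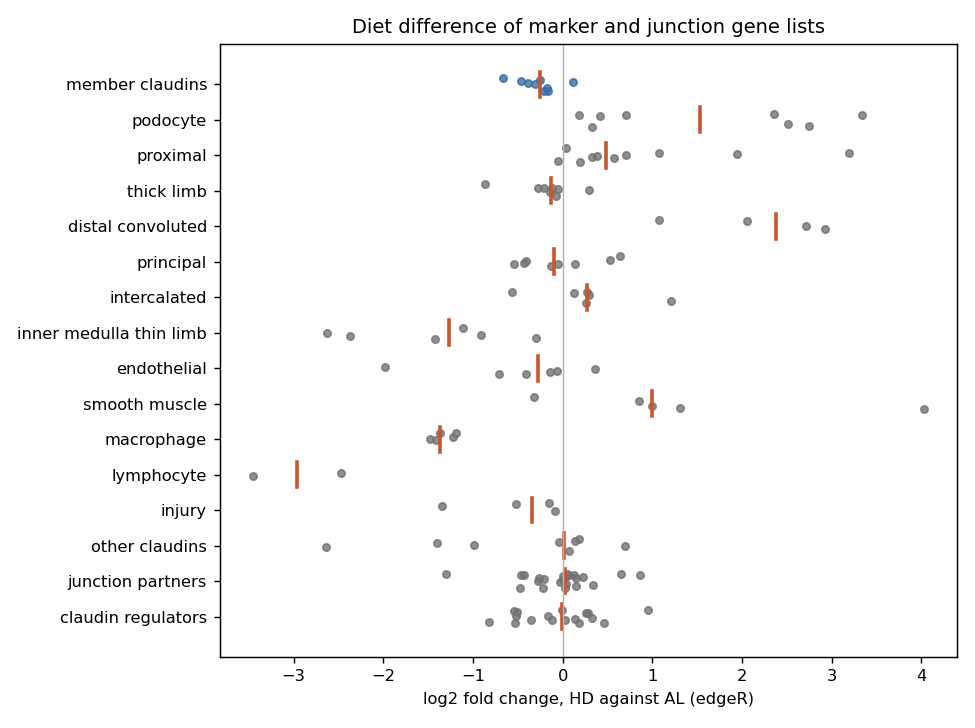
log2 fold change of the HD against the AL group (edgeR) for every tested gene of each list, with the 9 claudins in blue at the top and the median of each list as an orange line. The 9 claudins, without Cldn14, span -0.67 to 0.11, less than the podocyte, distal convoluted tubule or inner medulla lists. The thick limb (-0.86 to 0.29) and principal cell (-0.54 to 0.64) lists have ranges nearer to that of the claudins.

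For the members at the nominal limit, the genes with the most similar levels over the 6 rats were looked up by Pearson's correlation of log2 CPM plus 0.5, as a description. For Cldn8 these were Tmem123 (r = 0.98), Thbs4 (0.97) and Slc52a3 (0.97), and for Cldn4 they were Lrrfip1 (0.995), Mybph (0.984) and LOC498750 (0.983). The points share the library and its depth, and 7 genes for Cldn8 and 22 for Cldn4 exceeded r = 0.95.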

How the data were processed

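Kidney RNA of 6 rats was selected for poly(A), prepared with a kit that does not mark strand and sequenced as single-end reads. The authors assigned reads to transcripts with RSEM 1.1.15 (submitters' processing notes) at default parameters, with the University of California Santa Cruz gene definitions for rn5. Read filters are not given in the sources used here. For each transcript the authors deposited an estimated count (expected count), not normalized, a posterior mean of it, and TPM, scaled by RSEM to length and library. Columns of FPKM, expression fractions and credible bounds were not used here.

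Estimated counts were summed per gene and rounded. Each of the 10 claudins has 1 transcript, and no other listed transcript overlaps its locus. Genes that reached 30 reads in any rat were tested with edgeR 4.0.16 (R 4.3.3, quasi-likelihood test, TMM, diet as the only factor, Benjamini-Hochberg adjustment over 11553 genes, threshold 0.05). The common biological coefficient of variation was 0.242. Standard errors are the absolute log2 fold change divided by the square root of F. DESeq2 1.42.0, named in the paper's methods, was the alternative, on the same genes. Single values, ratios and levels relative to segment markers were compared by exact permutation tests over the 10 divisions of 6 rats into 3 and 3, on log2 of CPM plus 0.5 (scipy 1.17.1). The edgeR step was tested on simulated data.

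The members and lists were chosen with earlier results of these data known. Named genes are all members, and genes of the junction and claudin lists at an unadjusted *P* value below 0.05. List markers at the same limit, and the 3 most similar genes of each member at that limit, are named too. Aqp2, Umod, Ocln, Tjp1, Tjp3 and Pvalb were added after their values were seen. Kdr, Cryab, Lrp2, Cubn and Slc7a13 are also named without meeting these criteria. Some genes that meet these criteria are not reported here. Of 30 junction partners 23 were listed, and of 18 regulators 17. RefSeq promoters (GRCr8) matched 8 of the 10 members; Cldn2 and Cldn4 had no entry.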

Additional observations from a re-analysis of the deposited data

How the results depend on the processing

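No paired analysis was possible because the labels give no number shared between AL and HD rats. None of the 9 tested members passed the adjusted threshold of 0.05 under any setting with a fit across genes, and none of their fold changes turned direction under another test, scaling, filter, fit or count column. Library size alone shifted the all-gene median log2 fold change from 0.0067 to -0.074. The number of genes called across the table was 0 in the reported fit, 182 with DESeq2, 2 with every gene above 0 counts and 0 to 4 with each rat left out; the cause was not tested. With each rat left out, genes at an unadjusted *P* value below 0.05 numbered 606 to 1744, against 1224 reported, claudins at this limit 1 to 3, junction partners 0 to 5 and claudin regulators 1 to 8. The log2 fold change then crossed 0 for Cldn16 (-0.30 to 0.0732, the latter without rat 61), Cldn19 (-0.58 to 0.0103, the latter without rat 64), Cldn3 (-0.47 to 0.32) and Cldn1 (-0.82 to 0.14). A pseudocount of 0.1 in place of 0.5, which weighs low counts more, moved the Cldn14 to Cldn16 difference from -0.42 to -1.09 and Cldn14 relative to thick limb markers from -0.37 to -1.04. The median in place of the mean of the markers moved Cldn19 relative to the thick limb from -0.09 to -0.41, Cldn10 from 0.02 to -0.30, Cldn16 from 0.05 to -0.27 and Cldn14 from -0.37 to -0.69, and Cldn2 relative to proximal markers from -0.63 to -0.38; the cause was not tested. Cldn14, at 1 to 8 reads per rat, is limited by depth.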
